A study of Mus musculus with 11 samples.

Results

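The genes described here are 42 genes whose products copy DNA or divide the cell. They are given as a list of symbols, and the table held all 42 among its 31168 genes. Of these, 16 act mainly in S phase, when DNA is copied, and 26 act mainly in mitosis. Every member had a mean of at least 1 CPM (counts per 1000000 counts of a library, scaled with TMM factors), and every member passed the filter on low counts and was tested.

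RNA had been taken from a piece of distal ileum, the end of the small intestine, of mice given Dextran Sodium Sulfate, a polysaccharide that injures the intestinal lining. The WT group was 6 libraries of genotype H2-Ab1 fl/fl; Villin:Cre-, and the dIEC group was 5 libraries of genotype H2-Ab1 fl/fl; Villin:Cre+. Mice of both groups therefore carried the floxed H2-Ab1 alleles (H2-Ab1 encodes a chain of MHC class II) and both received the sulfate, and dIEC mice also carried a Cre transgene that the Villin promoter drives in intestinal epithelium. No untreated mice are among these samples, and the sources used here do not give the mice's age or the dose and length of treatment. The series' design text writes Cre- for both groups, so the groups follow the genotype label of each sample. H2-Ab1 was at 47.2 to 111 CPM in the WT libraries and at 16.8 to 39.0 CPM in the dIEC libraries, with no overlap. Every dIEC library lay below every WT library for 0.333% of all genes tested.

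Cells of the intestinal crypt divide throughout life and supply the cells of the villus. Before S phase the MCM helicase is loaded at origins of replication, polymerases and the sliding clamp Pcna then copy the DNA, and ribonucleotide reductase with other enzymes supplies nucleotides. Cyclin A, cyclin B and Cdk1 later drive the cell into mitosis, where kinases, kinesins and a checkpoint act on the spindle until the anaphase-promoting complex lets the chromosomes part. Promoters of S phase genes often hold E2F sites, and those of mitotic genes often hold a CHR element (cell cycle genes homology region) near CCAAT boxes. The tissue was measured whole, so fewer dividing cells and less of these RNAs per cell cannot be told apart.

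Both promoter patterns were present in the members. A promoter was 300 bases, 250 before and 50 after the start site, from RefSeq on GRCm38.p6, and 35 of the 42 members had one. On either strand, an E2F match (TTTNNCGC, with each N read as C or G) was in 5 of 13 S phase promoters, or 38.5%, and in 2 of 22 mitotic promoters, or 9.09%, against 2.32% of all 27025 promoters. A CHR match (TTTGAA or TTCGAA) was in 2 of 13 S phase promoters, or 15.4%, and in 18 of 22 mitotic promoters, or 81.8%, against 19.4% of all promoters. A CCAAT match was in 9 of 13 S phase and 18 of 22 mitotic promoters, against 37.9% of all. CHR and CCAAT matches stood together in 16 of 22 mitotic promoters, or 72.7%, and in 7.70% of all promoters. A match is a run of letters and was not tested for binding.

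The next 4 sequences show these elements in the member with non-overlapping groups (Depdc1a), the mitotic kinesin with the next lowest p (Kif15), the standard proliferation marker (Mki67) and a helicase subunit with several E2F matches (Mcm6). Each is the 200 bases before the start site, 5′ to 3′ in the direction of the gene, and capitals mark matches to any of the motifs on either strand. They lie at chr3:159495233-159495432 (plus strand, Depdc1a), chr9:122950881-122951080 (plus, Kif15), chr7:135716380-135716579 (minus, Mki67) and chr1:128359706-128359905 (minus, Mcm6).
Depdc1a: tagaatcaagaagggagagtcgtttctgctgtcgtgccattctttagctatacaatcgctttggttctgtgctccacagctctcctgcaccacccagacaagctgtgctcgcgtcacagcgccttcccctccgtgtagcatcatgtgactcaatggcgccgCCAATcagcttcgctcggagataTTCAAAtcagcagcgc
Kif15: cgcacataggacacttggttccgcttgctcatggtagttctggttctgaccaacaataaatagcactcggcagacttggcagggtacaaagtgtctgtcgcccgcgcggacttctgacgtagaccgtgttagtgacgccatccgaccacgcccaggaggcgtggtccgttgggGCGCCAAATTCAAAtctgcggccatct
Mki67: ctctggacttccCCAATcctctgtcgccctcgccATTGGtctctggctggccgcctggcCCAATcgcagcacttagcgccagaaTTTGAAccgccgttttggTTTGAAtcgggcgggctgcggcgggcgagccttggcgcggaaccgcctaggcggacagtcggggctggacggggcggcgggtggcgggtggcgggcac
Mcm6: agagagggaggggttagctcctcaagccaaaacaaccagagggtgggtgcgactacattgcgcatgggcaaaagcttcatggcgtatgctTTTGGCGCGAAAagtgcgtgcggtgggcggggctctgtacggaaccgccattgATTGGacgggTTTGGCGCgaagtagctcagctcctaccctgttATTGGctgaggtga
In Depdc1a a CCAAT match began 39 bases before the start site and a CHR match 16 bases before it. In Kif15 an E2F match at 27 bases before the start was followed directly by a CHR match at 19 bases. In Mki67 the CHR matches began 116 and 98 bases before the start, downstream of 3 CCAAT matches. In Mcm6 a pair of overlapping E2F matches began 110 and 106 bases before the start, another E2F match stood at 47 bases, and no CHR match was found.

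**Figure D1:**
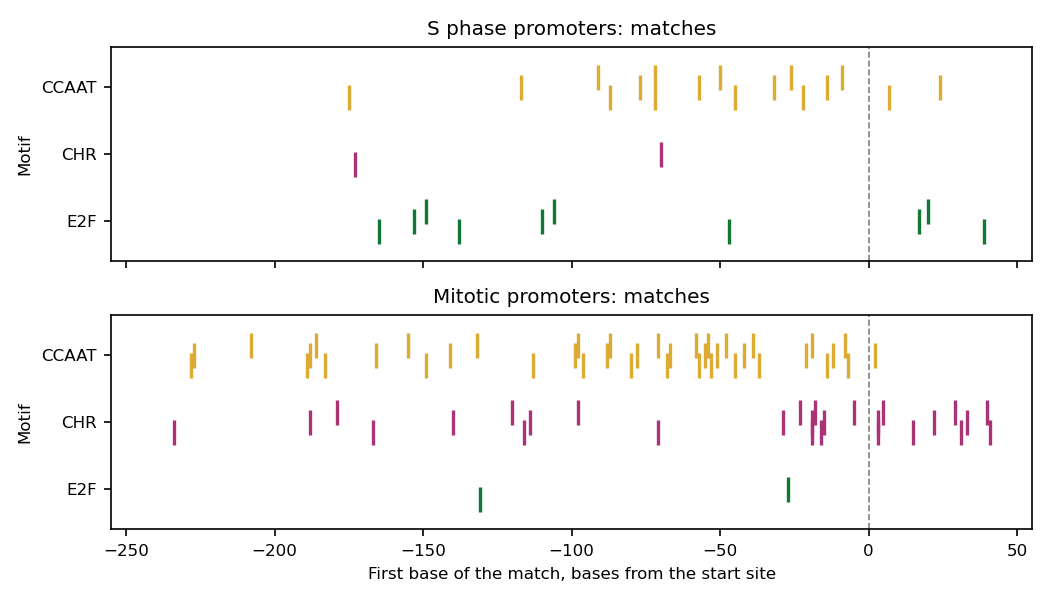
Positions of motif matches in the promoters of 13 S phase genes (top) and 22 mitotic genes (bottom); the x axis is the first base of a match in bases from the start site (dashed line), and each tick is 1 match, at staggered height where close. CHR matches crowd near the start site of mitotic genes, where 20 of 28 began no more than 100 bases before it, with a median position of -18.5.

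The mitotic members were lower in dIEC than in WT on average, yet none passed the adjusted test. All 26 had a log2 fold change below 0 (dIEC against WT), with a median of -0.36 and a range of -1.57 to -0.09. Of the 16 S phase members, 14 lay below 0, with a median of -0.18. Over all 15911 genes tested, 51.2% lay below 0 and the median was -0.01. With edgeR's quasi-likelihood test and Benjamini-Hochberg adjustment over all genes tested, 0 members were called, and 1 gene of the whole table was (0.00628%). That gene was higher in dIEC, and 0 genes were called lower, so H2-Ab1 itself was not called. DESeq2 likewise called 0 members. At an unadjusted p under 0.05, 2 of 26 mitotic members (Depdc1a and Kif15) and 0 of 16 S phase members were lower, against 5.79% of all genes. Only Gins2 of the 42 was higher at that level, against 4.86% of all genes. These shares of members are near those of all genes, so the shared sign of the mitotic members is a description and not a test.

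**Figure D2:**
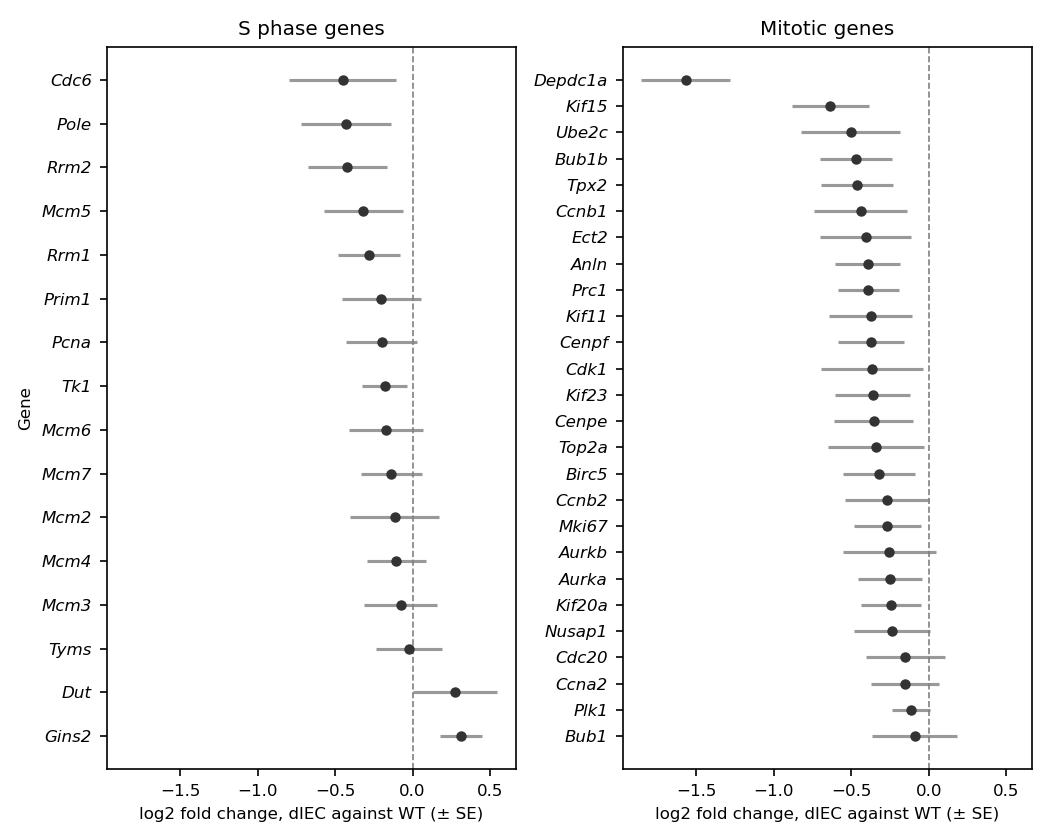
Log2 fold change of dIEC against WT for each member (points) with its standard error (bars), S phase genes on the left and mitotic genes on the right, ordered by value. All 26 mitotic points lie left of 0, most bars are wide against the distance from 0, and Depdc1a stands apart at -1.57; Gins2 and Dut are the 2 points right of 0.

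The lower dIEC averages came from particular libraries. With each member set to 100% at its WT mean, the median over the 26 mitotic members was 42.0% in dIEC replicate 1, 108% in replicate 3, 46.0% in replicate 5, 114% in replicate 6 and 84.7% in replicate 11. The WT libraries ran from 81.9% to 106%, with 5 of 6 between 102% and 106% and replicate 4 lowest. Replicates 1 and 5 thus lay far under every WT library, replicates 3 and 6 above every WT library, and replicate 11 within their range.

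The same libraries were low for nearly every mitotic member. Replicate 1 or replicate 5 was the lowest of the 11 libraries for 26 of 26 mitotic members, and the lowest pair was exactly these libraries for 23. Replicate 1 lay below the WT range for 26 mitotic members and replicate 5 for 25. No share over all genes stands beside these counts, or beside the like counts of S phase members. They therefore do not show whether these libraries were low for the members in particular. Replicate 3 lay below the WT range for 3 and above it for 6, and replicate 6 for 2 and for 8. Replicate 11 lay below it for 10 and above it for 0.

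S phase members split dIEC replicates 1 and 5. Their median was 45.9% of the WT mean in replicate 1 and 79.9% in replicate 5, beside 111% in replicate 3, 118% in replicate 6 and 82.4% in replicate 11. The WT libraries ran from 85.5% to 117%. Replicate 1 lay below the WT range for 15 of 16 S phase members, whereas replicate 5 did so for 7 and lay within it for 8. In both libraries the member above the WT range was Gins2.

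**Figure D3:**
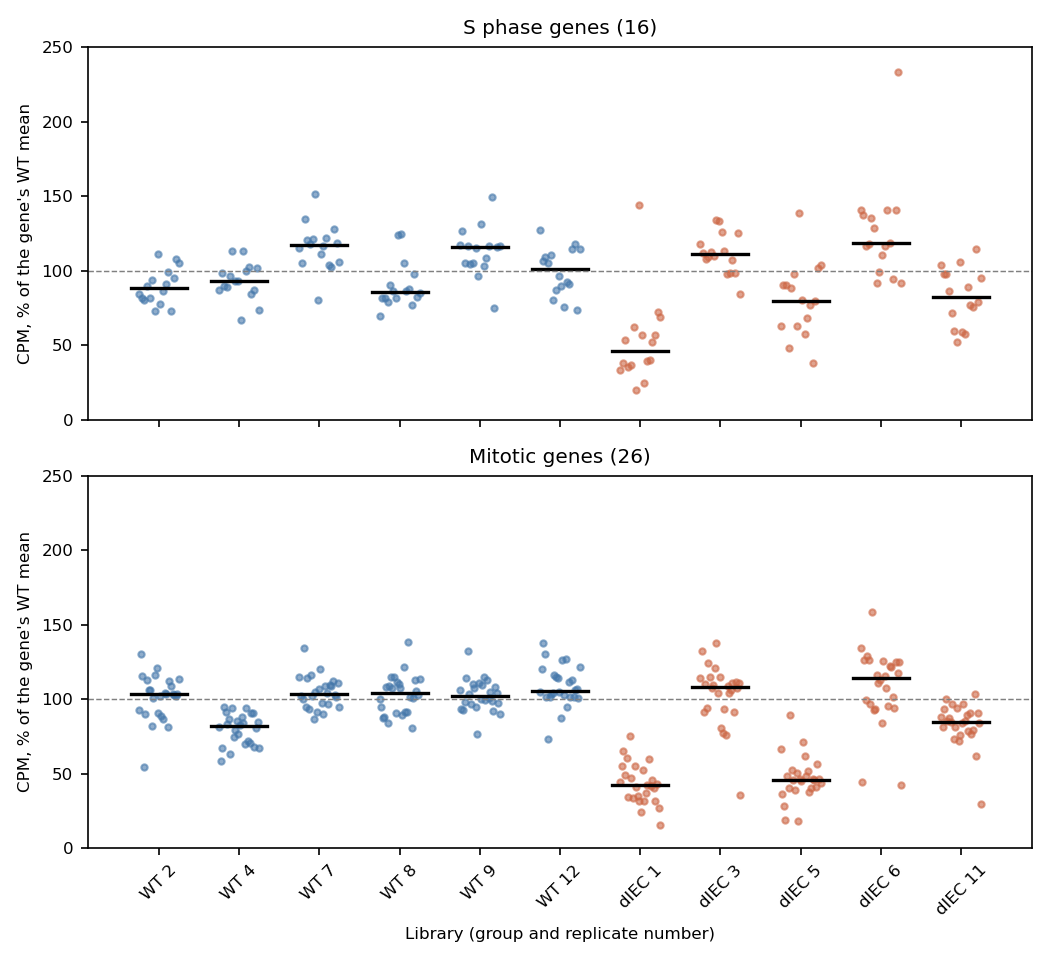
CPM of each member as a percent of its WT mean (y axis) in each of the 11 libraries (x axis), S phase genes above and mitotic genes below; points are genes, black bars the library medians, the dashed line 100%. In the mitotic panel the dIEC replicates 1 and 5 have medians of 42.0% and 46.0%, while in the S phase panel replicate 5 is at 79.9%.

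Summed over members, mitotic RNA in dIEC was 160 CPM in replicate 1, 420 in replicate 3, 200 in replicate 5, 451 in replicate 6 and 336 in replicate 11, against 323 to 420 in WT. The S phase sum was 82.8, 167, 128, 189 and 129 CPM in the same dIEC libraries, against 138 to 173 in WT. The mitotic sum divided by the S phase sum averaged 2.597 ± 0.292 over WT libraries (SD, n = 6) and 2.198 ± 0.443 over dIEC libraries (SD, n = 5). Replicate 5 had the lowest such quotient of all 11 libraries, 1.56, and replicate 1 the next, 1.93. The S phase sum includes Gins2, which gave 140 of 576 S phase counts in replicate 1 and 96 of 633 in replicate 5. The quotient of replicate 1 therefore rests in part on that 1 gene. The mitotic median percent divided by the S phase median percent was 0.576 in replicate 5 and 0.916 in replicate 1. In WT that quotient ran from 0.881 to 1.215, so by this measure replicate 5 lay under the WT range and replicate 1 within it.

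Depth and the share of ribosomal RNA also varied between libraries. Replicate 5 had the fewest counts of protein-coding genes other than Lars2, 1510304, and the largest share of ribosomal RNA, 49.2%. Counts of those genes were 2381449, 2876909, 1876023 and 2403552 in dIEC replicates 1, 3, 6 and 11, and 1978439 to 3215609 in WT. Replicate 1, with the lowest member medians, lay within the WT range of these counts, and replicate 6, with the highest, under it. The ribosomal share was 45.4% in replicate 1, 44.5% in replicate 6, 34.6% in replicate 11 and 28.7% in replicate 3, and 26.2 to 43.4% in WT. Replicates 5, 1 and 6 lay above the WT range of this share, and replicates 11 and 3 within it. Whether ribosomal RNA or depth has a part in the low member values was not tested.

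Leaving out replicate 1 moved the S phase median from -0.18 to -0.02 and left 9 of 16 members below 0, and it moved the mitotic median from -0.36 to -0.19 with 23 of 26 below 0. Leaving out replicate 5 gave a mitotic median of -0.21 with 25 of 26 below 0. Without replicate 6 the S phase median was -0.30. The count of the 26 mitotic members that were lower at an unadjusted p under 0.05 was 7 without replicate 3, 11 without replicate 6, 4 without replicate 11 and 1 without replicate 5, where the share of all genes that were lower was 5.08%, 7.05%, 3.96% and 6.66%. That of the 16 S phase members was 3 without replicate 3 and 1 without replicate 6. Without WT replicate 8, 319 of the 15794 genes tested were called, 213 higher and 106 lower. Of the 42 members 1 was called there, Depdc1a, a share near that of all genes. Leaving out replicate 1 brought the fold changes of Rrm1 to -0.11, Pole to -0.20, Cdc6 to -0.21, Cenpf to -0.22, Prc1 to -0.23, Bub1b to -0.29, Tpx2 to -0.30, Rrm2 to -0.31 and Kif15 to -0.42, each nearer to 0 than with all libraries. Rrm2 was nearest to 0 without WT replicate 9, at -0.26.

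Among the S phase genes, all 6 subunits of the MCM helicase, which unwinds DNA at the fork, lay below 0, with a median of -0.13. Mcm6 had the highest CPM of the 6. It ranged from 15.0 to 21.5 CPM in WT with a median of 18.3, and was 6.76, 20.6, 16.2, 24.7 and 13.1 CPM in dIEC replicates 1, 3, 5, 6 and 11. Its groups overlapped, and replicate 1 was far below the others (log2 fold change -0.17 ± 0.24, SE; edgeR adjusted p = 0.812). Without replicate 1 the fold change was 0.03. Mcm2, Mcm3, Mcm4, Mcm5 and Mcm7 had fold changes from -0.32 (Mcm5) to -0.08 (Mcm3), and each was lowest in replicate 1 except Mcm7, which was lowest in replicate 11.

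Of the 5 genes that license origins or act at the fork, 4 lay below 0. Cdc6, which loads the helicase at origins, ranged from 2.12 to 4.41 CPM in WT (median 2.62) and was 0.575, 3.91, 1.82, 2.68 and 1.51 CPM in dIEC replicates 1, 3, 5, 6 and 11. It rests on few reads, 4 to 40 per library, and its fold change was -0.45 ± 0.35 (edgeR adjusted p = 0.621). Pole, the catalytic subunit of the leading-strand polymerase, ranged from 6.68 to 10.3 CPM in WT (median 9.16) and was 2.16, 9.94, 5.07, 10.2 and 5.08 CPM in the same dIEC libraries. Replicates 1, 5 and 11 lay under every WT library and replicates 3 and 6 near the top of the WT range (-0.43 ± 0.29; edgeR adjusted p = 0.583).

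Pcna, the clamp that holds polymerases on DNA, ranged from 9.78 to 13.8 CPM in WT (median 10.8) and was 4.46, 11.1, 7.70, 15.9 and 10.03 CPM in dIEC replicates 1, 3, 5, 6 and 11. The dIEC libraries included both the lowest and the highest value of the 11 (-0.20 ± 0.23; edgeR adjusted p = 0.763). The fold change was -0.01 without replicate 1, -0.13 without replicate 5 and -0.43 without replicate 6. Prim1, which makes the RNA primers, had a fold change of -0.20 ± 0.26.

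Gins2, a subunit of the GINS complex of the fork helicase, went the other way. It ranged from 11.3 to 17.3 CPM in WT (median 13.5) and was 20.1, 18.7, 19.5, 13.9 and 14.8 CPM in dIEC replicates 1, 3, 5, 6 and 11. Replicates 1, 3 and 5 lay above every WT library and replicates 6 and 11 within their range. The fold change was 0.31 ± 0.13 (edgeR unadjusted p = 0.0343, adjusted p = 0.444). The unadjusted p stayed under 0.05 in 10 of 18 alternatives, and it did not without WT replicate 4, 7, 9 or 12 or dIEC replicate 1, 3 or 5, nor with library size alone as the scale. Gins2 lies at chr8:120578633-120589304 on the minus strand (GRCm38) and overlaps Gse1 on the other strand. The sources used here do not say whether counting used strand, so reads of the genes cannot be told apart.

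Of the 5 genes of nucleotide supply, 4 lay below 0. Rrm1, the large subunit of ribonucleotide reductase, ranged from 14.5 to 19.3 CPM in WT (median 16.7) and was 6.61, 16.3, 12.8, 19.7 and 12.8 CPM in dIEC replicates 1, 3, 5, 6 and 11 (-0.28 ± 0.20; edgeR adjusted p = 0.593). Its partner Rrm2, the subunit made mainly in S phase, ranged from 4.23 to 8.69 CPM in WT (median 5.42) and was 3.02, 6.26, 2.23, 5.51 and 4.40 CPM in dIEC (-0.42 ± 0.26; edgeR adjusted p = 0.544). For both subunits replicates 1 and 5 lay under every WT library, and Rrm1 was also under them in replicate 11. Tk1, thymidine kinase, and Tyms, thymidylate synthase, had fold changes of -0.18 ± 0.15 and -0.02 ± 0.21. Dut, which breaks down dUTP, was at 0.28 ± 0.27, with 9.76 CPM in replicate 6 against 3.02 to 5.25 CPM in the other dIEC libraries and at most 4.96 CPM in WT.

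Among the mitotic genes, the 4 genes of cyclins and Cdk1, which form the kinases of mitotic entry, had a median fold change of -0.32. Their fold changes were -0.44 ± 0.30 for Ccnb1, -0.37 ± 0.33 for Cdk1, -0.27 ± 0.27 for Ccnb2 and -0.15 ± 0.22 for Ccna2. Cdk1 was 1.22 CPM in dIEC replicate 5, from 6 reads, against 3.53 to 8.72 CPM in WT. Ccnb1 was low in 3 dIEC libraries, at 2.16, 1.42 and 1.73 CPM in replicates 1, 5 and 6, against 2.29 to 5.08 CPM in WT. With Depdc1a it made up the 2 mitotic members that lay under the WT range in replicate 6.

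The 6 kinases and partners of the spindle checkpoint and the chromosomal passenger complex had a median of -0.25. Bub1b, the checkpoint protein BubR1, ranged from 9.03 to 12.2 CPM in WT (median 11.4) and was 3.74, 12.1, 5.07, 10.2 and 8.11 CPM in dIEC replicates 1, 3, 5, 6 and 11. Replicates 1, 5 and 11 lay under every WT library (-0.47 ± 0.23; edgeR adjusted p = 0.479). Bub1, the related kinase at kinetochores, ranged from 2.71 to 4.96 CPM in WT (median 4.46) and was 2.01, 4.58, 2.23, 6.77 and 4.12 CPM in dIEC. Its value in replicate 6 was the highest of the 11, and its fold change of -0.09 ± 0.27 (edgeR adjusted p = 0.929) was the nearest to 0 of the mitotic members. It was 0.08 without replicate 1 and 0.04 without replicate 5. Plk1, a kinase needed for spindle assembly, varied least, at 11.4 to 14.4 CPM in WT and 9.92 to 15.2 CPM in dIEC (-0.11 ± 0.12). Aurora kinases Aurka and Aurkb, and Birc5 (survivin), which binds Aurkb, had fold changes of -0.25, -0.25 and -0.32.

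Ube2c, the ubiquitin-conjugating enzyme of the anaphase-promoting complex, was at 2.73, 8.16, 1.42, 8.66 and 5.63 CPM in dIEC replicates 1, 3, 5, 6 and 11, against 5.98 to 9.46 CPM in WT (-0.50 ± 0.32). Cdc20, which activates the complex, was at 3.31, 11.1, 4.05, 9.29 and 7.56 CPM in the same libraries, against 6.35 to 9.32 CPM in WT (-0.15 ± 0.25). Replicates 1 and 5 lay under the WT range for both genes.

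All 9 kinesins, spindle and kinetochore genes lay below 0, with a median of -0.37. Kif15, a kinesin that helps keep the spindle bipolar, ranged from 10.4 to 15.1 CPM in WT (median 12.7) and was 3.02, 10.2, 5.67, 10.6 and 10.6 CPM in dIEC replicates 1, 3, 5, 6 and 11. All 5 dIEC values lay under the WT mean of 12.6, although replicates 6 and 11 were above the lowest WT library. The fold change was -0.64 ± 0.25 (edgeR unadjusted p = 0.0224, adjusted p = 0.428). Its adjusted p ran from 0.206 to 0.713 over the 18 alternatives, and the unadjusted p was under 0.05 in 17 of them, the exception being the fit without dIEC replicate 5. Kif11, the other motor that keeps the spindle bipolar, had a fold change of -0.37 ± 0.27.

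Tpx2, which activates Aurka on the spindle, ranged from 6.45 to 11.8 CPM in WT (median 9.38) and was 3.45, 7.04, 4.46, 9.92 and 8.24 CPM in dIEC replicates 1, 3, 5, 6 and 11 (-0.47 ± 0.23; edgeR adjusted p = 0.481). Prc1, which bundles microtubules at the spindle midzone, ranged from 11.5 to 14.1 CPM in WT (median 12.4) and was 5.32, 13.6, 6.48, 11.97 and 9.89 CPM in dIEC (-0.39 ± 0.20; edgeR adjusted p = 0.484). Cenpf, a kinetochore protein, ranged from 16.2 to 22.9 CPM in WT (median 20.9) and was 9.20, 22.3, 9.32, 20.5 and 16.1 CPM in dIEC (-0.37 ± 0.21; edgeR adjusted p = 0.527). In these 3 genes replicates 3 and 6 lay inside the WT range and replicates 1 and 5 under it. Kif20a, Kif23, Cenpe and Nusap1 had fold changes from -0.36 to -0.24, and the cytokinesis genes Anln and Ect2 were at -0.39 and -0.41.

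Mki67, which encodes the Ki-67 antigen of dividing cells, lies at chr7:135689784-135716361 (minus strand, GRCm38). It ranged from 78.0 to 103 CPM in WT (median 99.1) and was 41.6, 103, 54.3, 114 and 87.1 CPM in dIEC replicates 1, 3, 5, 6 and 11. The group means were 96.4 ± 9.24 CPM (SD, n = 6) in WT and 79.9 ± 31.0 CPM (SD, n = 5) in dIEC, so the dIEC libraries spread more widely than the WT libraries and lay on both sides of them (-0.27 ± 0.22; edgeR adjusted p = 0.642). Top2a, the topoisomerase that untangles chromosomes, ranged from 51.5 to 67.6 CPM in WT (median 62.1) and was 16.5, 67.6, 28.4, 76.4 and 51.1 CPM in dIEC (-0.34 ± 0.31; edgeR adjusted p = 0.686). The order of the dIEC libraries was the same for both genes. Without dIEC replicate 1, 5 and 6 in turn, the fold change of Mki67 was -0.10, -0.16 and -0.42 and that of Top2a -0.12, -0.20 and -0.57.

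Depdc1a was the member whose groups did not overlap. It encodes a DEP domain protein and lies at chr3:159495433-159529955 (plus strand, GRCm38). Its values were 1.25 to 2.27 CPM in WT (median 1.94) and 0.288, 0.670, 0.810, 0.787 and 0.550 CPM in dIEC replicates 1, 3, 5, 6 and 11. Unlike most other mitotic members, it was also low in replicates 3 and 6, where the median member was above its WT mean. These values rest on 12 to 18 reads per WT library and 2 to 6 per dIEC library. The means were 1.87 ± 0.378 CPM (SD, n = 6) and 0.621 ± 0.213 CPM (SD, n = 5), a log2 fold change of -1.57 ± 0.29 with an edgeR adjusted p of 0.363 and a DESeq2 adjusted p of 0.0717. Over the 18 alternatives the edgeR or DESeq2 adjusted p ran from 0.0349, without WT replicate 8, to 0.688. Non-overlapping groups with dIEC lower were found for 1 of the 42 members and 0.333% of all genes tested, and with dIEC higher for 0 members and 0.233% of all genes. Its paralog Depdc1b, not a member, was at 2.13 ± 0.257 CPM in WT and 1.94 ± 0.931 CPM in dIEC (-0.10 ± 0.27; edgeR adjusted p = 0.915), and was named after its values were seen.

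**Figure D4:**
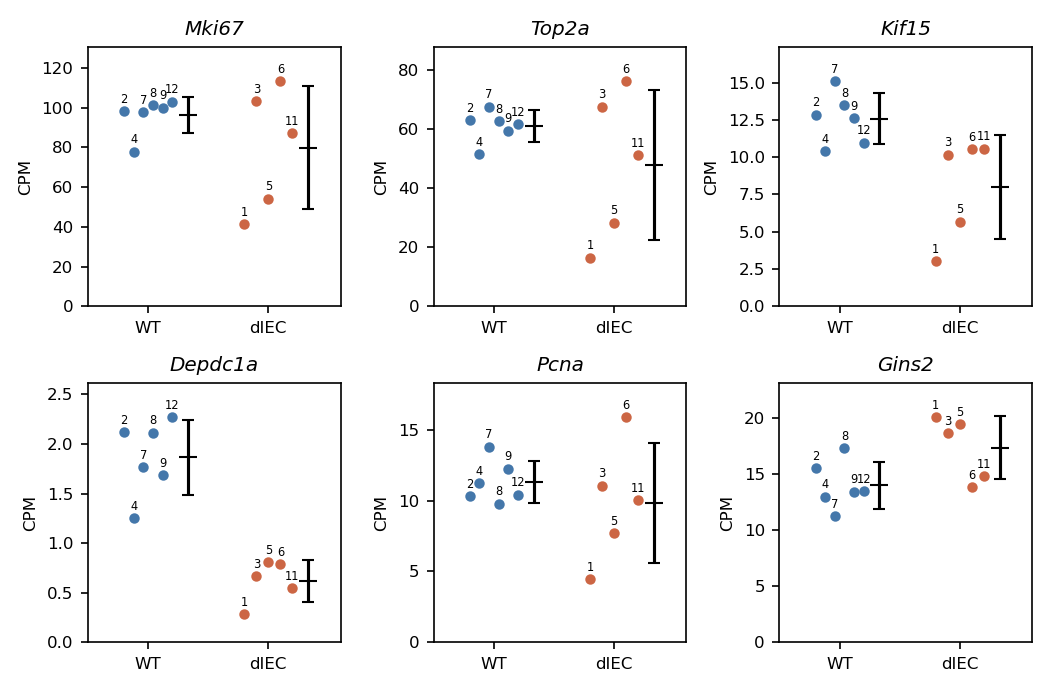
CPM of 6 members in each library, numbered by replicate, with the group mean and SD beside the points. In Mki67, Top2a, Pcna and Kif15 the dIEC replicates 1 and 5 lie lowest; in Depdc1a all 5 dIEC points lie under all 6 WT points; in Gins2 replicates 1, 3 and 5 lie highest.

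Levels of different genes were compared per length, as mean CPM per kilobase of merged exons over the 11 libraries. The highest were Mki67 at 8.84, Top2a at 6.11, Plk1 at 5.79, Pcna at 4.43 and Ccna2 at 4.29, and the lowest were Depdc1a at 0.391 and Cdc6 at 0.487. Some counts are uncertain for reasons of annotation. Pcna, Tyms, Ccnb1, Ccnb2 and Plk1 have pseudogene copies that could share reads, and Mcm7, Tk1, Ccna2, Cdc20, Ube2c, Prc1, Nusap1 and Kif20a overlap a gene on the other strand.

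Ratios within a library do not depend on library scaling. Mki67 divided by Pcna had a mean of 8.66 ± 1.47 over the WT libraries (SD, n = 6) and 8.31 ± 1.14 over the dIEC libraries (n = 5), a log2 difference of -0.05 (2-sided exact permutation p = 0.697, adjusted over 3 ratios 0.697). Mki67 divided by Epcam, a surface protein of epithelial cells, was 0.353 ± 0.0641 over the WT and 0.246 ± 0.119 over the dIEC libraries (log2 difference -0.63; exact permutation p = 0.0736, adjusted 0.221). Pcna divided by Epcam was 0.0421 ± 0.0114 over the WT and 0.0307 ± 0.0178 over the dIEC libraries (-0.57; exact permutation p = 0.152, adjusted 0.227). None of the 3 differences passed, and the smallest p that 462 splits allow is 0.00433.

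Across the 11 libraries Mki67 was compared with 7 genes on the log2(CPM + 1) scale, with permutation p adjusted over the 7. With Top2a, Pearson's r was 0.99 (permutation p = 6.0e-05, adjusted 0.00042) and Spearman's rho 0.79 (permutation p = 0.00564, adjusted 0.0395), and r was 0.89 without dIEC replicates 1 and 5, the libraries farthest from the median. With Pcna, r was 0.89 (permutation p = 0.00109, adjusted 0.00381) and rho 0.55 (p = 0.0798 by permutation, adjusted 0.186). The r was 0.41 without those libraries and was 0.70 without replicate 1 alone (adjusted permutation p = 0.0976), so the relation rests on them. With Olfm4, a marker of crypt base stem cells, r was 0.76 (permutation p = 0.0133, adjusted 0.0310) and rho 0.61 (p = 0.0518 by permutation, adjusted 0.181). That relation also rests on the same libraries, with r = 0.31 without them and 0.52 without replicate 1 (adjusted permutation p = 0.271).

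The other 4 relations did not pass. For Epcam r was -0.11 and rho 0.05 (permutation p = 0.753 and 0.881), and for Sis, the enterocyte enzyme sucrase-isomaltase, r was -0.36 and rho -0.12 (permutation p = 0.295 and 0.736). For the B cell gene Cd79a r was 0.27 and rho 0.14 (permutation p = 0.425 and 0.694), and for the smooth muscle gene Acta2 r was 0.48 and rho -0.02 (permutation p = 0.138 and 0.966). Their adjusted values were 0.242 or higher. Within the 6 WT libraries alone r was 0.82 for Top2a (permutation p = 0.141, rho 0.03). It was -0.12 for Pcna (permutation p = 0.872, rho -0.49) and -0.04 for Olfm4 (permutation p = 0.949, rho 0.31). It was -0.73 for Acta2 (permutation p = 0.0311, adjusted over the 7 relations 0.217; rho -0.89), opposite in sign to the r over all libraries, 0.85 for Cd79a (permutation p = 0.140; rho 0.03), 0.47 for Epcam (permutation p = 0.211) and 0.33 for Sis (permutation p = 0.420).

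**Figure D5:**
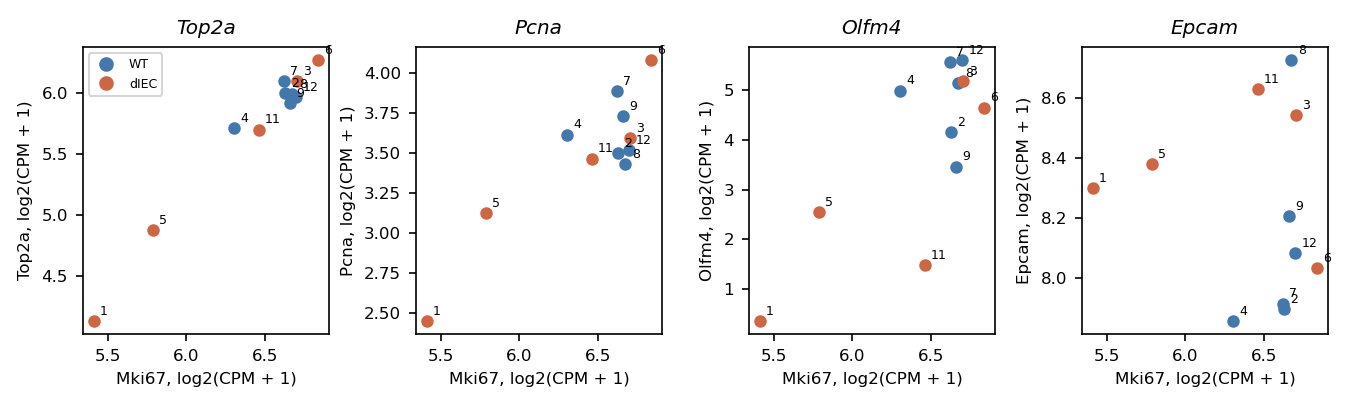
Mki67 (x axis) against Top2a, Pcna, Olfm4 and Epcam (y axes), all as log2(CPM + 1), 1 point per library numbered by replicate. Top2a follows Mki67 over the 11 libraries (r = 0.99, and 0.89 without dIEC replicates 1 and 5), although rho within the WT libraries was 0.03. For Pcna and Olfm4 dIEC replicates 1 and 5 stretch the range, and Epcam shows no trend (r = -0.11).

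Other genes of the same pathways were examined as lists. Of 67 tested mitotic genes outside the members, 63 lay below 0, with a median of -0.25, and 4 of 67 had an unadjusted p under 0.05, all lower, a share near the 5.79% of all genes. The 4 were Cenpa, the centromeric histone (-0.54 ± 0.18), Ckap2, a spindle protein (-0.59 ± 0.24), Fbxo5, an inhibitor of the anaphase-promoting complex (-0.54 ± 0.24), and Mad2l1, a checkpoint protein (-0.53 ± 0.24). Their edgeR adjusted p-values were 0.427 to 0.444. Without dIEC replicate 1 the list had a median of -0.10 with 52 of 67 below 0, and without replicate 5 one of -0.16 with 56 below 0. Each of these fits had 1 gene of the list lower at that p, where 4.63% and 6.66% of all genes were lower. Without replicate 3 there were 13 such genes and without replicate 6 there were 14, where the shares of all genes were 5.08% and 7.05%. Of its 58 promoters, 39 held a CHR match, or 67.2%.

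Of 52 tested replication genes outside the members, 36 lay below 0, with a median of -0.09. At an unadjusted p under 0.05, Pold1, the catalytic subunit of the lagging-strand polymerase, was lower (-0.46 ± 0.19), and Usp1, a deubiquitinase that acts on Pcna, and Cdc25a, a phosphatase that activates S phase kinases, were higher (0.31 ± 0.10 and 0.31 ± 0.11), against 5.79% of all genes lower and 4.86% higher. Without dIEC replicate 1 the median was -0.02 with 28 of 52 below 0, and 0 genes of the list were lower at that level. Without replicate 5 the median was -0.03. Usp1 was 16.5, 18.0, 14.6, 20.2 and 16.2 CPM in dIEC replicates 1, 3, 5, 6 and 11 and 13.8 ± 1.08 CPM in WT, and thus was not low in replicates 1 and 5. An E2F match was in 14 of 45 promoters of this list, or 31.1%. In both lists together 0 genes passed the edgeR adjusted test, and DESeq2 called 0.

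Cell cycle transcription factors were split, with 10 of 19 below 0 and a median of -0.06. E2f1 was at -0.51 ± 0.36 and Foxm1, a factor of mitotic promoters, at -0.06 ± 0.22. Of the 6 tested G1 cyclins, their kinases and Myc, 4 lay below 0, with a median of -0.12. Of 19 tested cyclin-dependent kinase inhibitors and p53 targets, 13 lay above 0, with a median of 0.13. Cdkn1c, Cdkn2b and Btg1, which restrain the cell cycle, were higher at an unadjusted p under 0.05 (0.90 ± 0.32, 0.41 ± 0.16 and 0.41 ± 0.17; edgeR adjusted p = 0.427 to 0.444), against 4.86% of all genes. Without dIEC replicate 1, and without replicate 11, 0 genes of this list were higher at that level.

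Genes of the histone clusters, taken by their Hist symbols, were added as a list after the data were seen. RNA of many such genes is made in S phase, but the list was not selected for that. Of 60 tested, 32 lay below 0, with a median of -0.03. Their median was 44.9% of the WT mean in dIEC replicate 1 and 56.7% in replicate 5, against 128%, 152% and 106% in replicates 3, 6 and 11 and 66.5% to 123% in WT. Replicates 1 and 5 were thus the lowest libraries for these genes as well. Reads of the near-identical copies may be shared, so single histone genes are uncertain.

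Markers of cell types also differed in their group averages, with 0 of them past the edgeR adjusted test with all libraries, and their part in the member values was not tested. Of 12 crypt base stem cell genes, 11 lay below 0, with a median of -0.26, and their summed level was 275 to 368 CPM in WT and 215 to 338 CPM in dIEC. Without dIEC replicate 1 that median was -0.11 with 9 of 12 below 0. As a percent of the WT mean, the median of the 12 genes was 49.2, 98.1, 74.9, 108 and 71.3% in dIEC replicates 1, 3, 5, 6 and 11. It was 89.6 to 110% in WT. Olfm4 was 0.288, 35.0, 4.86, 23.9 and 1.79 CPM in dIEC replicates 1, 3, 5, 6 and 11, against 10.003 to 47.3 CPM in WT (-1.19 ± 0.81; edgeR adjusted p = 0.589). It was below the WT range in replicate 11 as well, where Mki67 was at 87.1 CPM, within its WT range of 78.0 to 103 CPM. In that library 10 of 26 mitotic members lay below their WT range. Lgr5, the receptor that marks these stem cells, was 3.88, 6.70, 5.47, 9.13 and 4.67 CPM in dIEC and 4.30 to 9.25 CPM in WT. All 12 epithelial markers lay above 0 (median 0.23; sums 2047 to 3462 CPM in WT, 2450 to 3242 in dIEC). All 14 tested enterocyte genes did too (median 0.65). Sums over all 15 listed enterocyte genes were 3020 to 11731 CPM in WT and 4422 to 10682 in dIEC. As a percent of the WT mean, the median of the 14 was 205, 186, 149, 77.4 and 192% in dIEC replicates 1, 3, 5, 6 and 11. It was 56.8 to 234% in WT.

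Dividing immune cells can also express the members. Of 8 tested T cell genes, 7 lay above 0 (median 0.51). Sums over all 11 listed T cell genes were 13.2 to 22.8 CPM in WT and 20.9 to 36.4 in dIEC. Of 16 B cell and germinal centre genes, 15 were among the genes measured and 3 were tested (median 0.10). Sums over the 15 were 15.5 to 18.9 CPM in WT and 13.5 to 19.9 in dIEC. Of 10 macrophage genes, 8 lay below 0 (median -0.07; sums 51.5 to 149 CPM in WT, 80.7 to 144 in dIEC). All 10 smooth muscle genes lay below 0 (median -0.37; sums 2334 to 4797 CPM in WT, 1317 to 3281 in dIEC), as did all 10 fibroblast genes (median -0.77; sums 358 to 1131 CPM in WT, 346 to 594 in dIEC). In dIEC replicate 1 the median smooth muscle gene was at 39.3% of its WT mean and the median fibroblast gene at 39.4%. These medians were 72.2 to 146% and 45.7 to 139% in WT, and 97.9% and 62.1% in dIEC replicate 5. At an unadjusted p under 0.05, 2 of 12 crypt base stem cell genes and 9 of 10 fibroblast genes were lower, against 5.79% of all genes. At that level 3 of 8 T cell, 3 of 14 enterocyte and 1 of 12 epithelial genes were higher, against 4.86% of all genes. DESeq2 called 0 genes of these lists. Without WT replicate 8, edgeR called 6 enterocyte, 3 epithelial and 3 fibroblast genes at an adjusted p under 0.05, beside 319 of all 15794 genes tested. In that fit the enterocyte median was 1.12, and 12 of 14 enterocyte genes were higher at an unadjusted p under 0.05, against 11.2% of all genes.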

How the data were processed

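The authors deposited 1 table of whole-number counts per gene, not normalized, with all 11 columns matched to a sample by name. Per the labels' protocols, RNA was total RNA and libraries were directional. Per the submitters' processing notes, TopHat2 and genome build mm10 were used. The sources used here do not give the counting tool, its strand setting or its handling of reads that map more than once. Totals ran from 6603965 to 9681698 counts per library, with 26.2 to 49.2% ribosomal. The 1 row that named no gene (0.00778 to 0.0147% of counts) was left out. No libraries agreed within sampling noise (chi-square per degree of freedom at least 10.7 within groups).

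Counts were fitted in R 4.3.3 with edgeR 4.0.16 (filterByExpr, TMM, robust quasi-likelihood test, Benjamini-Hochberg over 15911 genes, threshold 0.05), tested on simulated data. Standard errors were obtained as |log2 fold change| divided by the root of F. DESeq2 1.42.0, other scalings and filters, and leaving out each library were alternatives. Each library was taken as 1 mouse, so p-values cover only the spread between them. Coordinates and exon lengths came from GENCODE vM21 (GRCm38), and 99.2% of symbols were in it. The members and lists were chosen with earlier results of these data known. Named in full in each class were the 5 members with the lowest p, the 3 with the highest CPM and the 1 with the highest fold change, and Mki67, Pcna and Top2a. In other lists they were up to 4 of lowest p and up to 2 of highest CPM; those outside this rule (Foxm1, Olfm4, Lgr5) were chosen after their values were seen, as were members named with fewer values.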

Additional observations from a re-analysis of the deposited data

Results flagged for a closer look

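In 48 groups of libraries examined for a value far from the others, 3 stood out, and chance gives about 1 in 20. Mki67 in WT replicate 4 was the lowest of its group at 78.0 CPM, while the other WT libraries were at 97.6 to 103 CPM. Epcam in WT replicate 8 was the highest of its group at 423 CPM, against 231 to 295 CPM in the others. Sis in the same WT library was the highest at 597 CPM, against 162 to 319 CPM.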

How the results depend on the processing

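No paired analysis was possible because no replicate number occurs in both groups. Over 18 alternatives the mitotic median stayed below 0, from -0.53 to -0.19, and the S phase median from -0.39 to -0.02. Scaling by library size alone shifted the median of all genes to -0.22 and gave medians of -0.39 (S phase) and -0.53 (mitotic), which are -0.17 and -0.31 relative to that shift. It called 1 gene lower over the table, put 6 mitotic members lower and 0 members higher at an unadjusted p under 0.05, where 13.8% of all genes were lower and 0.792% higher, and gave an r of Mki67 of 0.36 with Epcam and 0.68 with Acta2 (adjusted permutation p = 0.0429). DESeq2 called 9 genes higher and 2 lower. Leaving out 1 library at a time, genes called higher ran from 1 to 213 and lower from 0 to 106, and members called from 0 to 1. At an unadjusted p under 0.05, the lower S phase members ran from 0 to 3, lower mitotic members from 1 to 11, and higher members from 0 to 1, while the share of all genes ran from 3.57% to 9.83% lower and from 2.97% to 11.2% higher. S phase members below 0 ran from 9 to 15, and mitotic members from 23 to 26. The fold change of Mcm6 ran from -0.37 to 0.03 and that of Bub1 from -0.35 to 0.08, with 0.027 for Mcm6 and 0.083 for Bub1 without dIEC replicate 1 and 0.04 for Bub1 without dIEC replicate 5. The Mki67 to Pcna log2 difference ran from -0.11 to 0.0031, at 0.0023 without WT replicate 8 and 0.0031 without dIEC replicate 5. The r of Mki67 ran from 0.70 to 0.91 with Pcna, from 0.52 to 0.87 with Olfm4, from -0.25 to -0.04 with Epcam and from -0.22 to 0.62 with Acta2, where -0.22 was without dIEC replicate 1. Depdc1a had a fold change of -1.53 without WT replicate 8 and passed there (edgeR adjusted p = 0.0349), where 319 of 15794 genes tested were called. The cause of these changes was not tested. Members with few reads, such as Depdc1a and Cdc6, are limited by depth.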
